A study of Mus musculus with 10 samples.

Results

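The genes described here are 37 members of the DNA damage response and of DNA repair, taken from a list that covers damage checkpoints, homologous recombination, end joining, mismatch repair and excision repair. Of these, 35 were measured among 18193 genes, each through the probe set whose mean over the 10 samples was highest, and no probe set was named for Xrcc2 or Dclre1c. H2afx is the older symbol of H2ax. The cells, labelled NSTY ALL, were GFP-sorted acute lymphoblastic leukaemia from mouse bone marrow, of C57BL/6 background, with the human p210 bcr/abl fusion and an Ink4a/Arf deletion in every sample. All recipients were C57BL/6 mice prepared by whole-body irradiation and 5-fluoruracil. In the syngeneic group (5 animals) the leukaemia was infused with C57BL/6 marrow and spleen cells, and in the allogeneic group (5 animals) with C3.SW marrow and spleen cells. It was passed through 3 serial transplants at intervals of 2 to 3 weeks before RNA was taken. The ages of the animals, and whether animals of a group received leukaemia from one earlier recipient, are not stated in the labels. If an earlier recipient was shared, the 5 animals of a group are not fully independent. The p-values set each difference against the spread between animals within the groups and treat the animals as independent.

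Double-strand breaks are sensed by the kinases ATM and ATR, which halt the cell cycle through CHK2 and CHK1. Breaks are then joined directly, end to end, or repaired by homologous recombination, which copies the sister chromatid and depends on BRCA1, PALB2 and BRCA2. Mismatch repair corrects replication errors, and excision repair removes damaged bases or short damaged stretches. In B-lymphoid precursors, end joining also completes the rearrangement of antibody genes. Loss of Ink4a/Arf removes an activator of p53, and BCR-ABL is known to alter break repair.

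Values below are log2 array intensities after quantile normalization, and a difference is the allogeneic mean minus the syngeneic mean, tested with limma. All 35 measured members exceeded the background limit on all 10 arrays. That limit, the 95th percentile of 27 bacterial control probe sets on each array, lay between 4.50 and 5.32. Ratios of 3' to 5' Gapdh control signal, which reflect RNA integrity, spanned 1.46 to 1.56 for syngeneic arrays and 1.38 to 1.59 for allogeneic ones. Lower quartiles of intensity before normalization were raised for allogeneic animals 1, 3 and 4 (18.7 to 19.5, against 13.8 to 14.4 for the other 7). These 3 arrays are all of the allogeneic group, so values are also given without them where a call changes. Cdkn2a, the gene of the deleted locus, stood at 3.41 to 4.86 and exceeded the limit on 1 of 10 arrays; whether its probe set lies inside the deletion was not examined. Of 11 measured B-lymphoid markers, 10 exceeded it on every array, and Pax5 was the exception at 2.16 to 5.94. The leukaemia was profiled in bulk, so fewer cells that express a gene and less RNA per cell cannot be told apart.

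No member passed the test over all genes (adjusted p under 0.05), and the lowest adjusted p was 0.0968, for Brca2. Across all genes 0.506% were called higher and 0.0770% lower in the allogeneic group. At an unadjusted p under 0.05, 5 members were lower (Brca2, Xrcc3, Lig4, Msh6 and Ddb2; 14.3% of the 35) and 1 was higher (Xrcc6), against 7.40% and 9.47% of all genes. Both directions together made 17.1% of members, against 16.9% of all genes and 18.8% of genes above background on every array. Differences were negative for 26 of 35 members, or 74.3%, against 48.8% of all genes and 49.5% of the 10455 genes above background on every array. Their median was -0.14, against 0.011 over all genes, and it was -0.090 without syngeneic animal 3 and -0.084 without allogeneic animal 5. The 5 allogeneic values lay wholly below the syngeneic ones for 1 member, Msh6, and wholly above them for 1, Xrcc6. Across all genes such separation was found for 1.90% (lower) and 2.94% (higher), so 1 member in each direction is near the background.

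**Figure D1:**
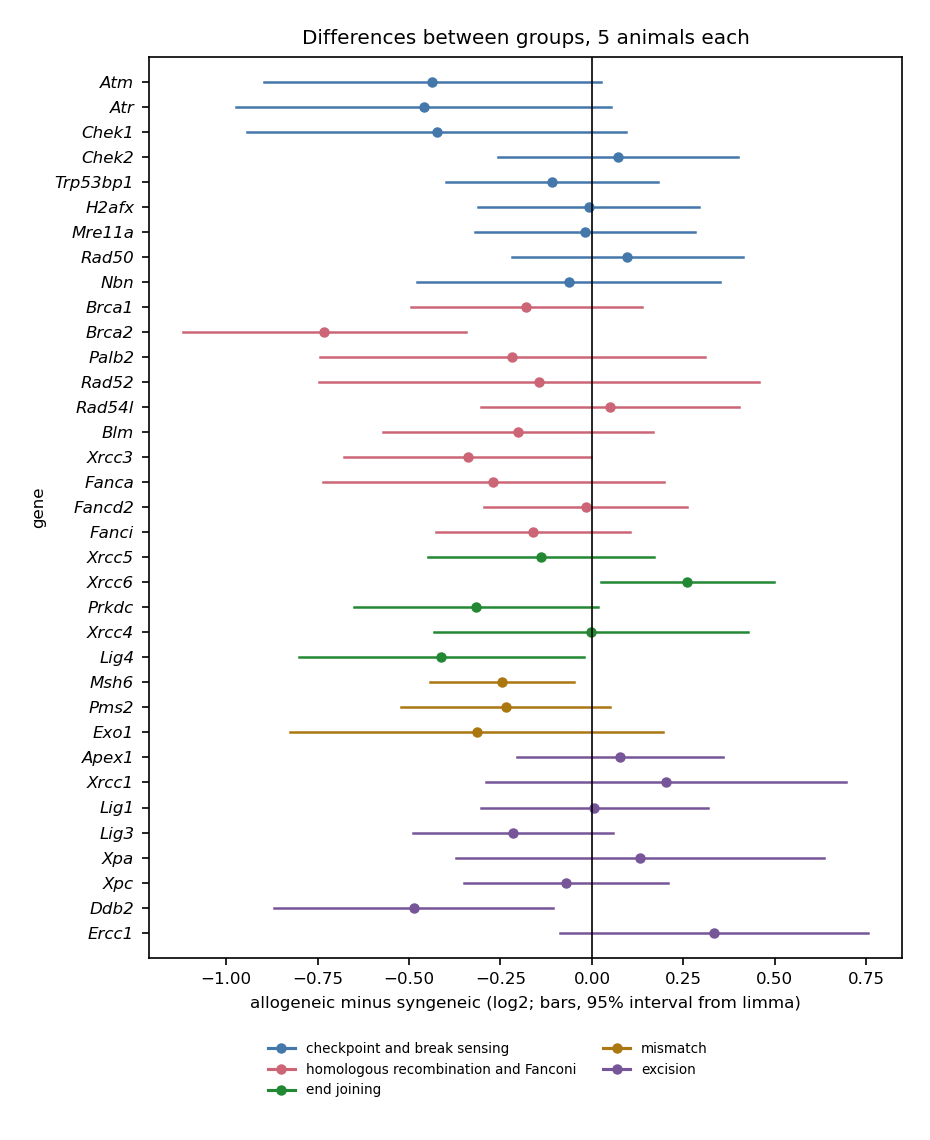
Difference of each of the 35 measured genes between groups (x axis, log2, allogeneic minus syngeneic; points, estimate; bars, 95% interval from limma, 5 animals per group), coloured by pathway. Brca2 is farthest from 0 at -0.73, and 26 of the 35 points lie left of 0.

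Promoter sequence is shown for the member with the largest difference and for the pair whose groups did not overlap. Each run is the 250 bases before the annotated start, 5′ to 3′ on the gene's strand, from RefSeq on build GRCm38.p6. The Brca2 stretch is chr5:150522371-150522620 (+ strand), that of Msh6 is chr17:87974800-87975049 (+ strand) and that of Xrcc6 is chr15:82016119-82016368 (+ strand). Capitals mark the only matches among the motifs searched: a GAAA repeat with 2 bases of any kind between its copies, the core of the interferon-stimulated response element, in Brca2, with its first base 202 bases before the start, and the reverse complement of CCAAT in Msh6, 34 bases before it. Xrcc6 held none of the motifs searched.
Brca2: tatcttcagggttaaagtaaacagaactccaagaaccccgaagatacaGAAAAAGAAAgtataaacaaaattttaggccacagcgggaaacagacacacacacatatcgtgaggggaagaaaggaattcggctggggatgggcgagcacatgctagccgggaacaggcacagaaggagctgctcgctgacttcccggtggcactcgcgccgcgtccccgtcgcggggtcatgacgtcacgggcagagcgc
Msh6: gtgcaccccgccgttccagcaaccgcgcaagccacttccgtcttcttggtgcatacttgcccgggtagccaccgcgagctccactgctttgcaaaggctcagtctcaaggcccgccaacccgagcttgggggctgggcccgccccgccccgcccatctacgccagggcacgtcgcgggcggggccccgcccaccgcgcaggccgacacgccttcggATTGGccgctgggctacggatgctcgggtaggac
Xrcc6: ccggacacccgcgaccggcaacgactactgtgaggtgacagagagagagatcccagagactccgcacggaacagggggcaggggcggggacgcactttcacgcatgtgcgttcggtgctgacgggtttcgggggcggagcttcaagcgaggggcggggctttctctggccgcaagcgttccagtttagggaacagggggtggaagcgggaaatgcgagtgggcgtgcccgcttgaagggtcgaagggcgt

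The motifs were searched on both strands in the promoters of the 28 members that the RefSeq table held. Those not searched were H2afx, Rad50, Nbn, Xrcc2, Fancd2, Prkdc, Exo1, Xpc and Ddb2. CCAAT was present in 15 of them (53.6%), against 33.8% of all 32851 promoters of the same length. The GAAA repeat was present in 3 (10.7%), Brca2, Chek1 and Xrcc1, against 2.98%, and TTCNNNGAA, a STAT motif, in 2 (7.14%), against 7.02%. The strict E2F sites TTTCGCGC, TTTGGCGC and TTCCCGCC were found in 0 of the 28 and in 2.48% of all promoters. A match describes letters and is not evidence of binding, and the search found no motif shared by the 3 promoters printed above.

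Checkpoint and break-sensing genes were led by the apical kinases. Of 9 members none passed the test over all 10 animals, 7 differences were negative and the median was -0.063, which became 0.0071 without allogeneic animal 1 and 0.0084 without syngeneic animal 2, and ranged from -0.13 to -0.037 with any other single animal left out. Atr, the kinase that answers stalled replication forks, stood at 11.02, 11.03, 10.95, 10.54 and 10.72 in syngeneic animals 1 to 5 and at 11.24, 10.06, 10.38, 10.23 and 10.05 in allogeneic animals 1 to 5. Allogeneic animal 1 was the highest of all 10 and the other 4 were below every syngeneic animal. The difference was -0.46 (SE 0.23, 95% interval -0.97 to 0.053, adjusted p = 0.345), and the other Atr probe sets gave -0.96 and -0.90. Without allogeneic animal 1 the adjusted p of Atr was 0.0402.

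Atm, the kinase activated by double-strand breaks, showed the same arrangement of animals. Its values were 11.45, 11.48, 11.42, 11.34 and 11.54 in the syngeneic group and 11.74, 10.78, 11.14, 10.87 and 10.51 in the allogeneic group. Allogeneic animal 1 again exceeded all syngeneic animals while the other 4 lay below all of them. The difference was -0.44 (SE 0.21, adjusted p = 0.320), and the second Atm probe set gave -0.10. Without allogeneic animal 1 the adjusted p of Atm was 0.0442.

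Neither effector kinase gene downstream of ATM and ATR passed the test. Chek1, which encodes the effector kinase of ATR, ranged from 10.81 to 11.15 in the syngeneic and from 9.72 to 11.09 in the allogeneic group, with a difference of -0.42 (SE 0.23, adjusted p = 0.388). Its 4 probe sets above background on all arrays gave -0.33 to -0.78. Chek2, which encodes the effector kinase of ATM, differed by 0.071 (95% interval -0.26 to 0.40). Whether Chek1 and Chek2 differed from each other was not tested.

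The remaining 5 genes of this group recognise or mark the break. Mre11a, Rad50 and Nbn, which encode the complex that tethers broken ends and activates ATM, differed by -0.020 (adjusted p = 0.959), 0.096 (adjusted p = 0.772) and -0.063 (adjusted p = 0.897). H2afx, the histone variant phosphorylated around breaks, differed by -0.0086 (95% interval -0.31 to 0.29). Trp53bp1, a scaffold that favours end joining, differed by -0.11 (SE 0.13) on its used probe set. All 6 of its probe sets were negative, from -0.11 to -0.53. On 1 of those not used the allogeneic values lay wholly below the syngeneic ones (-0.38, adjusted p = 0.170 over all probe sets).

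**Figure D2:**
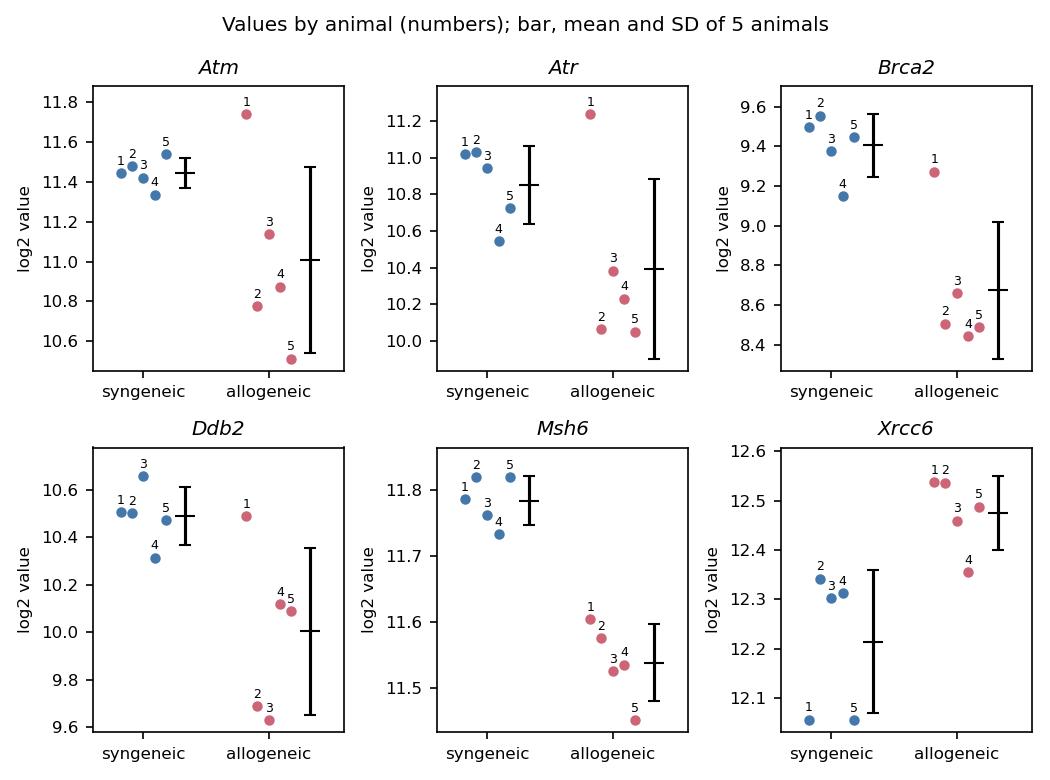
Log2 value of 6 repair genes in each animal (points, numbered by animal; bars, mean and SD of 5 animals per group); each panel has its own y axis, which does not start at 0. For Atm, Atr, Brca2 and Ddb2 allogeneic animals 2 to 5 lie below all syngeneic animals and animal 1 does not, while Msh6 and Xrcc6 separate the groups without overlap.

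Homologous recombination and Fanconi genes held the largest difference. Of 10 measured members none passed, 9 differences were negative and the median was -0.19 (-0.12 without allogeneic animal 5). Brca2, a tumour suppressor gene needed for homologous recombination, stood at 9.50, 9.56, 9.38, 9.15 and 9.45 in the syngeneic animals and at 9.27, 8.51, 8.66, 8.44 and 8.49 in the allogeneic ones. Allogeneic animal 1 lay within the syngeneic range, and the other 4 lay below it by more than the whole spread of the syngeneic group. The difference was -0.73 (SE 0.17, 95% interval -1.12 to -0.35), a ratio of 0.602, with an adjusted p of 0.0968. A single probe set represents Brca2. It passed under 4 of 21 alternatives, and over all 21 its adjusted p ran from 0.0105 to 0.223. Its adjusted p was 0.0371 when the lower 50% of genes by mean were left out, 0.0161 with array weights and 0.0105 without allogeneic animal 1.

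The partners of Brca2 did not pass. Brca1, a ubiquitin ligase that promotes resection, ranged from 9.84 to 10.30 in syngeneic and from 9.72 to 10.31 in allogeneic animals, with a difference of -0.18 (SE 0.14, adjusted p = 0.553). Allogeneic animal 1 held the highest of these values. The other 2 Brca1 probe sets above background on all arrays gave -0.57 and -0.49, and neither passed over all probe sets. Palb2, which bridges BRCA1 and BRCA2, differed by -0.22 (SE 0.24). Rad52, an annealing factor, differed by -0.14 (SE 0.27), and Rad54l, a motor protein of strand invasion, by 0.049 (SE 0.16).

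Xrcc3, a gene of homologous recombination, had the next largest difference of this group. It stood at 9.10, 8.95, 8.59, 8.77 and 8.73 in the syngeneic and at 8.41, 8.24, 8.79, 8.30 and 8.70 in the allogeneic animals. The groups overlapped through allogeneic animals 3 and 5, and the difference was -0.34 (SE 0.15, adjusted p = 0.294). The second Xrcc3 probe set went the opposite way (0.11), so the 2 probe sets disagree. Blm, the helicase mutated in Bloom syndrome, differed by -0.20 (SE 0.17). Among genes of the Fanconi pathway, which unhooks interstrand crosslinks, Fanca differed by -0.27, Fanci by -0.16 and Fancd2 by -0.016, with adjusted p-values of 0.545, 0.523 and 0.962.

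End-joining genes held members on both sides of 0. Of 5 measured members none passed, and the median was -0.14. It became -0.039 without allogeneic animal 1, -0.090 without syngeneic animal 3 and -0.083 with array weights. Xrcc6, which encodes the Ku70 subunit that caps broken ends, stood at 12.06, 12.34, 12.30, 12.31 and 12.06 in syngeneic and at 12.54, 12.54, 12.46, 12.35 and 12.49 in allogeneic animals. Every allogeneic value lay above every syngeneic one, though allogeneic animal 4 exceeded syngeneic animal 2 only narrowly. The difference was 0.26 (SE 0.11, adjusted p = 0.255), and a second, dimmer probe set gave -0.094. Xrcc5, which encodes the partner subunit Ku80, differed by -0.14 (SE 0.14, adjusted p = 0.646).

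Lig4, the ligase of end joining, stood at 10.10, 10.04, 10.08, 10.15 and 9.55 in syngeneic and at 9.88, 9.37, 9.87, 9.22 and 9.53 in allogeneic animals. Syngeneic animal 5 lay apart from its group and produced the overlap, since the allogeneic values were all below the other 4 syngeneic ones. The difference was -0.41 (SE 0.17, adjusted p = 0.273). Xrcc4, the scaffold bound by this ligase, differed by -0.0030 (95% interval -0.43 to 0.43). Prkdc, the catalytic subunit of the DNA-dependent protein kinase recruited by Ku, stood at 9.49, 9.38, 9.34, 9.07 and 9.01 in syngeneic and at 9.17, 8.91, 9.08, 8.57 and 8.98 in allogeneic animals, with overlapping groups. Its difference was -0.32 (SE 0.15, adjusted p = 0.320).

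All 3 mismatch repair genes had negative differences on the probe sets used, with a median of -0.25, and none passed. Msh6, which takes part in recognising single mismatches, stood at 11.79, 11.82, 11.76, 11.73 and 11.82 in syngeneic and at 11.60, 11.58, 11.53, 11.54 and 11.45 in allogeneic animals. The groups did not overlap, and allogeneic animal 1 was the highest of its group but below every syngeneic animal. The difference was -0.25 (SE 0.088, 95% interval -0.44 to -0.050, adjusted p = 0.210), a ratio of 0.843. The SD was 0.038 over syngeneic and 0.058 over allogeneic animals. A single probe set represents Msh6.

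Exo1, the nuclease that removes the mismatched strand, stood at 10.85, 11.01, 10.74, 10.19 and 11.00 in syngeneic and at 10.26, 10.71, 10.42, 10.94 and 9.87 in allogeneic animals. The groups overlapped over most of their range, with a difference of -0.32 (SE 0.23, adjusted p = 0.516). The Exo1 probe sets not used, at lower signal, gave 0.086 and -0.68. Pms2, which encodes an endonuclease subunit, differed by -0.24 (SE 0.13, adjusted p = 0.383), but its other 2 probe sets, at lower signal, gave 0.15 and 0.58.

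Excision repair genes lay on both sides of 0, with 5 of 8 differences positive, a median of 0.042 and none past the test. The sign of that median depended on the setting: it was -0.023 as deposited, -0.057 with median centring, -0.032 with the mean over probe sets, -0.026 with the probe set of largest variance, and -0.0079 and -0.031 without allogeneic animals 3 and 5. Ddb2, which recognises ultraviolet photolesions in chromatin, stood at 10.51, 10.50, 10.66, 10.31 and 10.47 in syngeneic and at 10.49, 9.69, 9.63, 10.12 and 10.09 in allogeneic animals. Allogeneic animal 1 lay inside the syngeneic range and the other 4 below it. The difference was -0.49 (SE 0.17, 95% interval -0.87 to -0.11, adjusted p = 0.203), and the second probe set gave -0.39.

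Ercc1, part of the nuclease that cuts on the 5' side of a lesion, had the largest positive difference of all members. It stood at 10.28, 10.16, 10.46, 10.28 and 10.43 in syngeneic and at 9.998, 10.71, 11.09, 10.82 and 10.66 in allogeneic animals. Animal 1 was the lowest of all 10 and the other 4 allogeneic animals were above every syngeneic one. The difference was 0.33 (SE 0.19, adjusted p = 0.404), and all 4 probe sets were positive (0.096 to 0.55). Xpa and Xpc, which verify and detect helix distortion, differed by 0.13 (adjusted p = 0.810) and -0.071 (adjusted p = 0.815). The 2 Xpa probe sets not used gave -0.59 and -1.11, opposite to the one used.

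Of the base excision genes none passed. Apex1, the endonuclease at abasic sites, differed by 0.078 (95% interval -0.20 to 0.36) and Lig1, the replicative ligase, by 0.0065 (95% interval -0.30 to 0.32). Xrcc1, a scaffold of single-strand break repair, differed by 0.20 (SE 0.22) and Lig3, the ligase it binds, by -0.21 (SE 0.12).

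**Figure D3:**
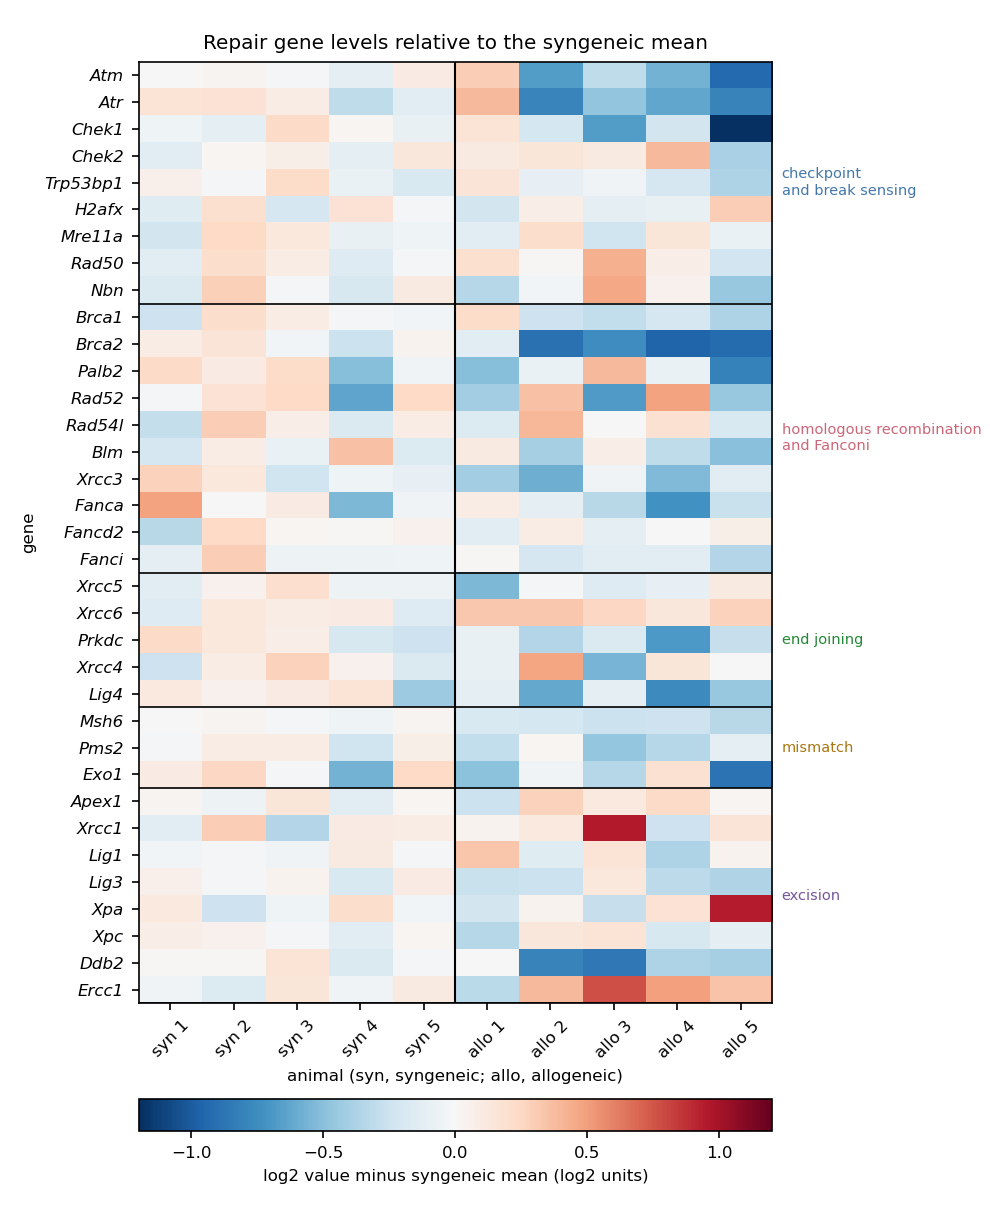
Log2 value of each measured gene minus its syngeneic mean (colour, log2 units, blue lower and red higher) in the 10 animals (columns) by pathway (row blocks). The deepest blue cells of Atm, Atr and Brca2 are in allogeneic animals 2 to 5, and allogeneic animal 1 is pale or red in those rows.

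Members varied more between allogeneic than between syngeneic animals. The median SD was 0.27 in the allogeneic and 0.17 in the syngeneic group, and 31 of 35 members (88.6%) had the larger SD in the allogeneic group. Among genes above background on every array the medians were 0.31 and 0.17 and the share was 85.7%, so the members' spread is close to that of other genes. By animal, the median deviation of the 35 members from the syngeneic mean was -0.13, -0.043, -0.12, -0.19 and -0.28 in allogeneic animals 1 to 5, against -0.089 to 0.094 in the syngeneic animals. Allogeneic animal 1 lay inside the syngeneic range for 19 members (54.3%) and the other 4 animals for 12 to 14 each (34.3% to 40.0%). Over all genes above background the share was also highest in animal 1, at 44.2% against 32.8% to 41.4%. For the mismatch genes the median deviation was -0.29 in animal 1, while for the checkpoint genes it was 0.16 there and -0.39 to -0.031 in the other 4.

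Leaving out allogeneic animal 1 brought 3 members past the test, all lower, where 1.50% of all genes were called lower and 2.00% higher in that fit. Brca2 fell by 0.88 (SE 0.11, adjusted p = 0.0105), Atr fell by 0.67 (SE 0.14, adjusted p = 0.0402) and Atm fell by 0.62 (SE 0.13, adjusted p = 0.0442). Ddb2 (-0.61, adjusted p = 0.0539) and Ercc1 (0.50, adjusted p = 0.0630) did not pass. No label gives a reason to remove that animal, and over all 10 animals Atr and Atm passed under no alternative. Over the 35 members the median was -0.14 with or without it, and 22 differences were negative without it. With allogeneic animals 1, 3 and 4 all left out, Brca2 fell by 0.91 and Atm fell by 0.80 (both adjusted p = 0.0370), while Atr, at -0.80, had an adjusted p of 0.0534.

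**Figure D4:**
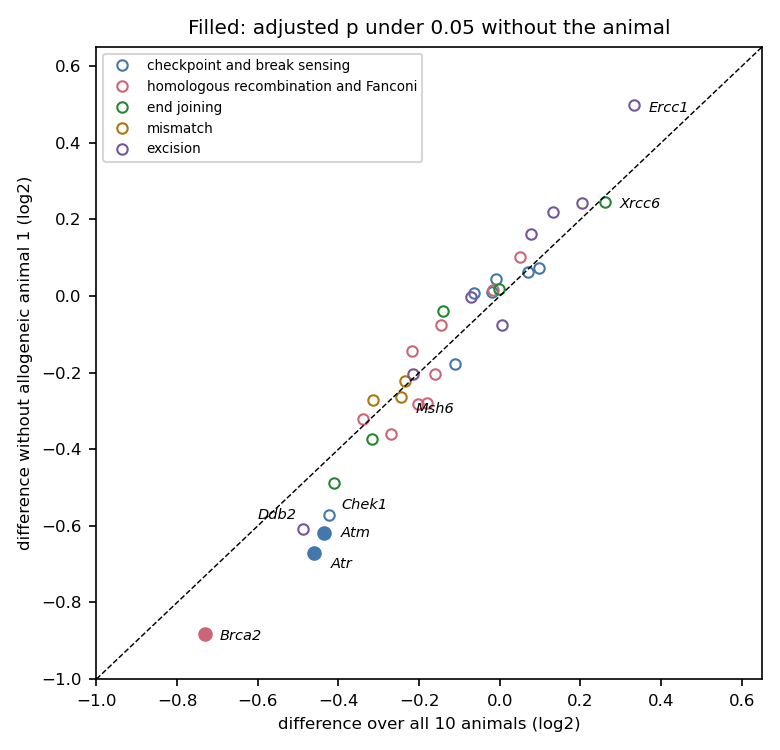
Difference of each measured gene without allogeneic animal 1 (y axis, log2) against the difference over all 10 animals (x axis, log2), coloured by pathway, with the line of equality dashed; filled points had an adjusted p under 0.05 without the animal. Brca2, Atr and Atm are the 3 filled points and lie below the line.

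Some markers of other cells moved with that removal. The granulocyte median difference went from 0.15 to 0.39 and the NK cell median from 0.27 to 0.20. Medians of the T cell, erythroid and B-lymphoid lists changed little (0.12 to 0.096, -0.27 to -0.26 and 0.023 to 0.024). Without allogeneic animal 1 the macrophage and monocyte markers had a median difference of 0.42 (-0.062 over all animals). Lyz2, a lysozyme gene, rose by 1.10 in that fit (adjusted p = 0.0180). Lyz2 stood at 5.23 in that animal, at 8.76 to 9.46 in the other 4 allogeneic animals and at 7.74 to 8.24 in the syngeneic ones. Over all animals 6 of the 13 measured macrophage and monocyte markers were higher, none passed, and their summed linear intensity was 4693 to 6543 in syngeneic and 6390 to 9844 in allogeneic animals, with the highest sum in allogeneic animal 1. One gene, Mpeg1, made up 64% to 91.5% of these sums. Without it the syngeneic sums spanned 1430 to 1767 and the allogeneic ones 836.4 to 2692, and allogeneic animal 1 was then the lowest of all 10. C1qa (2.10), C1qb (2.73), Ccr2 (4.98), Cd68 (6.43) and Mrc1 (8.96), chosen after their values were seen, were also lowest in that animal. The C1qa and C1qb values there lay under that array's background limit of 4.50. The remaining markers of the list were not lowest in that animal: C1qc, at 6.22 there, lay above every syngeneic animal (5.86 to 6.07). Csf1r (5.08) and Fcgr1 (4.21) were lowest in allogeneic animal 3. Cd14 and Itgam of this list exceeded background on no array. Of 9 NK cell markers 6 were higher, sums were 1028 to 1519 and 1264 to 2089, and Ncr1, Klrk1, Klra8, Gzmb and Eomes were above background on no array. Without allogeneic animal 1 Gzma, a granule protease gene of the NK list, rose by 1.27 (adjusted p = 0.0146), and Tfrc, the transferrin receptor gene of the erythroid list, fell by 0.45 (adjusted p = 0.0417). Cd8b1 of the T cell list and Hba-a1 and Car1 of the erythroid list were also above background on no array. Sums of the T cell markers were 209.4 to 260.9 and 219 to 287.5, of granulocyte markers 1957 to 4833 and 1378 to 7702, and of erythroid markers 9155 to 10190 and 6535 to 9459. Tfrc alone made up 97.1% to 98.5% of the erythroid sums, which without it were 150.5 to 173.6 and 138.8 to 206.2. For the B-lymphoid markers they were 61420 to 63640 and 63610 to 65050. The part of other cells in the members' differences was not tested.

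Replication and mitosis genes were measured beside the members because many repair genes are expressed with the cell cycle. Of 19 S-phase genes none passed (0 at an unadjusted p under 0.05), 9 were negative and the median was 0.010. Mcm6, a subunit of the replicative helicase, differed by 0.23 (SE 0.11, adjusted p = 0.306). Of 19 G2/M genes none passed, 12 were negative (63.2%, against 48.8% of all genes) and the median was -0.061. At an unadjusted p under 0.05, 3 of them were lower (15.8%, against 7.40% of all genes). Cenpe, a kinetochore motor, ranged from 10.22 to 10.67 in the syngeneic and from 8.99 to 10.18 in the allogeneic group, with a difference of -0.76 (SE 0.22, adjusted p = 0.152). Kif11, a spindle motor, and Mki67, the proliferation antigen, differed by -0.36 and -0.56 (adjusted p = 0.204 and 0.220).

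Other genes of the same pathways came from wider lists of 121 genes, of which 110 were measured. None passed over all genes, 63 differences were negative and the median was -0.035 (0.00051 without allogeneic animal 1). The negative share was 57.3%, against 48.8% of all genes. At an unadjusted p under 0.05, 13 were lower (11.8%, against 7.40% of all genes) and 5 higher. Both directions together made 16.4% of these genes, against 16.9% of all genes. Groups did not overlap for 2 lower genes and 1 higher gene of the 110, against 1.90% (lower) and 2.94% (higher) of all genes. The counts without overlap and the share of both directions together are not above the background. The lower share and the negative share are above it. Fancm, the helicase that recruits the Fanconi core complex to stalled forks, ranged from 8.82 to 9.21 in syngeneic and from 7.94 to 8.63 in allogeneic animals. Its groups did not overlap, and the difference was -0.69 (SE 0.15, adjusted p = 0.0785). In the same list Dna2, a resection nuclease, differed by -0.47 (SE 0.13, adjusted p = 0.135) and Fancl, a ubiquitin ligase, by 0.34 (adjusted p = 0.246).

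Among other checkpoint genes 20 of 25 differences were negative (80%, against 48.8% of all genes). Mdm2, which encodes the ubiquitin ligase of p53, ranged from 11.58 to 11.91 in syngeneic and from 11.04 to 11.53 in allogeneic animals without overlap, with a difference of -0.50 (SE 0.12, adjusted p = 0.107). Smc3, a cohesin subunit, differed by -0.54 (SE 0.17) and Clspn, the adaptor that lets ATR activate CHK1, by -0.37 (SE 0.14). Without allogeneic animal 1 Smc3, Clspn, Dna2, Fancm and the glycosylase gene Neil3 passed, all lower (adjusted p from 0.0299 to 0.0417). In that fit 1.50% of all genes were called lower and 2.00% higher. Without allogeneic animals 1, 3 and 4 Smc3 fell by 0.85 (adjusted p = 0.0344).

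In the other lists the genes of smallest p had differences on both sides. Of the mismatch and resynthesis genes Pms1 differed by -0.49, the polymerase delta subunit Pold2 by 0.30 without overlap, and the clamp loader subunit Rfc5 by 0.25. Of the excision genes, 13 of 27 differences were negative, and the smallest p-values were those of Ercc2 (0.58), a helicase subunit of TFIIH, Cetn2 (0.32), which binds XPC, and Gtf2h4 (0.37), another TFIIH subunit. The glycosylase gene Neil3 had the largest difference of that list (-0.71, SE 0.32, adjusted p = 0.291), with a p close to that of Cetn2 and Gtf2h4. Of the end-joining genes Tdp2, which removes trapped topoisomerase, differed by -0.34, Tdp1 by 0.24 and Rag1, the recombinase of antibody genes, by 0.46. Translesion synthesis genes were led by the polymerase genes Polk (-0.42) and Rev3l (-0.46) and by Mad2l2 (0.44), a subunit of the same polymerase as Rev3l. Without allogeneic animals 1, 3 and 4 Rev3l fell by 0.79 (adjusted p = 0.0415) and Mad2l2 rose by 0.81 (adjusted p = 0.0370). Over all animals, for the 12 genes of smallest p named from these 4 lists, adjusted p lay between 0.174 and 0.568.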

How the data were processed

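Per the labels, biotinylated cDNA made with NuGEN kits was hybridised to 1 Affymetrix array per animal. The authors deposited linear intensities, 1 for each of 45101 probe sets on each array. How they were summarised and scaled is not given in the sources, and 1 result column per sample was used. Values were log2 transformed, quantile normalized between arrays and named by the platform annotation, with symbols updated through GRCm38.p6 gene identifiers for 34741 of the 34945 probe sets with 1 symbol (932 had several, 9160 none, and 64 were controls). For each of 18193 genes the probe set with the highest mean was kept, without a filter on low values. Array number limits the precision. Groups were compared across all genes with limma 3.58.1 (lmFit and eBayes, R 4.3.3) and Benjamini-Hochberg adjustment; the fit was tested on simulated data. Weights used statmod 1.5.0.

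The members and lists were chosen with earlier results of these data known. All 37 members could be named, with values by animal for members called or without overlap and for the 2 largest differences per pathway, and up to 3 genes of smallest p per other list. Lyz2, Gzma, Tfrc and Neil3 were named with values because leaving out 1 animal changed their call. Mpeg1 and Tfrc were also named as the genes with the highest mean in their lists. Alternatives were no quantile normalization, median centring, other probe set rules, filters on low values, log2(value + 16), other eBayes settings, array weights, animal number as a replicate block, and arrays left out. Animal numbers are shared by both groups, but no label pairs the animals: correlations of deviations between same-numbered animals were 0.263, 0.349, -0.0530, -0.207 and -0.196 over 10455 genes.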

Additional observations from a re-analysis of the deposited data

Results flagged for a closer look

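Of 70 groups of 5 animals tested for a value far from the rest (Dixon's test at the 95% level, which chance passes in about 1 in 20 groups), 7 held one. Animal 1 of the allogeneic group was high for Atr, at 11.24 against 10.05 to 10.38, for Brca1, at 10.31 against 9.72 to 9.89, and for Brca2, at 9.27 against 8.44 to 8.66. For Lig3 the highest value was that of allogeneic animal 3, at 12.18 against 11.69 to 11.80. In the syngeneic group animal 2 was high for Fanci, at 10.64 against 10.23 to 10.29, and animal 4 was high for Lig1, at 12.11 against 11.96 to 11.99. Syngeneic animal 5 was low for Lig4, at 9.55 against 10.04 to 10.15. The cause of these values was not tested.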

How the results depend on the processing

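The members' median difference stayed between -0.19 and -0.084 under all 21 alternatives. Over 735 member values, 667 kept their direction and side of the threshold, 7 newly passed and 61 changed sign; as no member passed at first, none could be lost. The cause was not tested for these changes. Calls among all genes (106) became 67 with the probe set of largest variance, 237 and 269 with the lower 25% and 50% of genes left out, 252 with log2(value + 16), 307 with trend and robust eBayes, 720 with array weights, 658 without allogeneic animals 1, 3 and 4, and 55 to 636 with 1 animal left out (636 without allogeneic animal 1). With the replicate block 14 genes and 0 members were called; the animal numbers did not pair the samples, and only animals 1 and 2 correlated best with their own number. Members called were 1 with the lower 50% left out (Brca2), 1 with array weights (Brca2), 2 without allogeneic animals 1, 3 and 4, and 0 to 3 with 1 animal left out. Other repair genes called were 1 each with the largest variance (Mpg), the lower 25% left out (Fancm), log2(value + 16) (Fancm) and trend and robust eBayes (Mdm2), 2 with the lower 50% left out (Mdm2 and Fancm), 5 with array weights, 3 without allogeneic animals 1, 3 and 4 (Smc3, Rev3l and Mad2l2), and 0 to 5 with 1 animal left out. Without those 3 animals the checkpoint median was -0.23 and the end-joining median 0.047.

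Signs that changed were those of values that had not passed. Of 33 unused member probe sets above background on all 10 arrays, 24 had the same sign as the used one. As deposited, Lig1 gave -0.049. Median centring gave Rad54l -0.00028, Apex1 -0.031 and Lig1 -0.083. The mean over probe sets gave Rad54l -0.14, Fancd2 0.16, Fanci 0.030, Pms2 0.16 and Xpa -0.52. The probe set of largest variance gave Brca1 0.60, Rad54l -0.57, Fancd2 0.65, Fanci 0.22, Xrcc6 -0.094, Pms2 0.58, Apex1 -0.022 and Xpa -1.11. Of these probe sets, that of Brca1 exceeded background on 0 arrays, that of Fancd2 on 1 and that of Fanci on 3. Array weights gave H2afx 0.042, Mre11a 0.074, Rad52 0.021, Fancd2 0.025, Xrcc4 0.17 and Lig1 -0.094. Leaving out allogeneic animals 1, 3 and 4 gave Chek2 -0.12, H2afx 0.19, Mre11a 0.064, Rad50 -0.11, Fancd2 0.079, Xrcc5 0.047, Xrcc4 0.24, Lig1 -0.049 and Xpc 0.011. With 1 animal left out in turn, Chek2 ran from -0.0078 to 0.19, H2afx from -0.084 to 0.044, Mre11a from -0.077 to 0.039, Nbn from -0.19 to 0.035, Rad54l from -0.039 to 0.12, Fancd2 from -0.099 to 0.044, Xrcc4 from -0.12 to 0.14, Lig1 from -0.076 to 0.10 and Xpa from -0.073 to 0.23. With 5 arrays per group, differences whose 95% intervals include 0 cannot be given a direction.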
